A study of Oryctolagus cuniculus with 9 samples.

Results

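The genes described here encode the moving parts of the motile cilium and the carriers that build it. They are the genes of the deposited table whose symbol starts with DNAH, DNAI, DNAAF, CFAP, RSPH, TEKT or IFT followed by a digit, together with FOXJ1. The rule uses names alone and gave 65 of 20525 genes: 24 CFAP, 14 IFT, 12 DNAH, 6 RSPH, 4 TEKT, 2 DNAI and 2 DNAAF genes and FOXJ1. Another 5 genes are listed under a locus number only and carry a symbol of these families in RefSeq (IFT70A, CFAP90, CFAP46, CFAP97D2 and DNAH10). They were left out of every count.

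Polyadenylated RNA of rabbit (Oryctolagus cuniculus) vocal folds was measured in 3 groups of 3 libraries. Normal folds had no injury, untreated folds were injured and received nothing, and SOT folds were injured and received the SOT hydrogel, which the study title calls antioxidant and adhesive. Injured folds were collected 1 week after injury, and no genetic change is given for any group. The sources used here give neither strain, age nor pooling, and do not state that replicates are separate animals. The p-values therefore reflect only how much these samples vary, part of which may be technical. The cell type label reads vocal cord histiocytes, that is, macrophages. In the normal folds, 13 macrophage markers summed to between 152 and 222 FPKM, while 17 skeletal muscle markers summed to between 10260 and 12410 FPKM and 20 stratified epithelium markers to between 5750 and 15150 FPKM. The libraries therefore held RNA of several tissues and are treated as whole folds.

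A motile cilium is a bundle of microtubule doublets around a central pair. Dynein arms on the doublets pull, radial spokes pass signals from the central pair to the arms, and tektins and many CFAP proteins line or tie the doublets. Intraflagellar transport (IFT) trains carry parts along the cilium, in the motile cilia of airway epithelium and also in the single, immotile primary cilium of most other cell types. FOXJ1 is the transcription factor that switches on motile cilium genes. In the larynx, ciliated cells line parts of the airway surface, whereas the vibrating edge of the fold carries stratified epithelium.

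Total counts ranged from 44755718 to 50338111 per library, of which the 65 genes took between 18740 and 28162. A filter on low counts kept 17344 genes, 62 of the 65 among them. DNAH8, TEKT3 and TEKT5 did not pass it and were not tested. In the deposited annotation, the word cilium stands in the terms of 37 of the 65 genes (56.9%) and of 1.43% of all genes. On the build OryCun2.0, 16 of the 65 lie on unplaced scaffolds, 6 on chromosome 19, 5 on chromosome 9 and 5 on chromosome 12.

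Levels between genes were compared as FPKM, which is per length of transcript. The IFT genes and the other 51 genes stood at different levels. All 14 IFT genes had a mean over the 9 libraries above 2 FPKM, from 4.27 to 25.4 with a median of 6.93, beside a median of 6.62 over all genes tested. Of the other 51 genes, 42 had a mean under 1 FPKM and 6 a mean above 2 FPKM, with a median of 0.285. The 6 above 2 FPKM were CFAP20, CFAP36, RSPH3, DNAAF2, CFAP97 and FOXJ1. The lowest means were those of DNAH8 and TEKT5, at 0.00273 and 0.00301 FPKM. The dynein heavy chains are long, so that 1 FPKM of them stood for 565 to 776 counts in normal replicate 1.

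**Figure D1:**
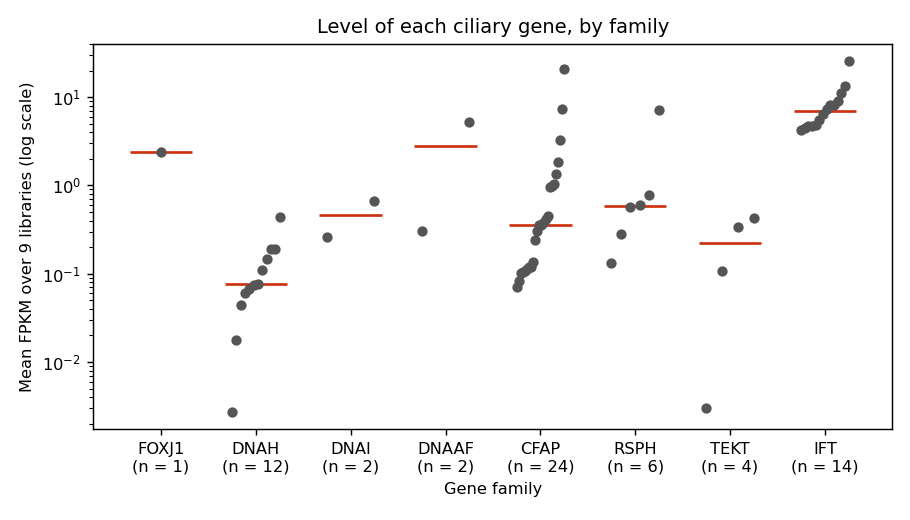
Mean FPKM over the 9 libraries of each of the 65 genes on a log axis, by family; each point is a gene and each line the median of its family. The 14 IFT genes lie between 4.27 and 25.4 FPKM, and all 12 DNAH genes lie under 1 FPKM.

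Among the dynein heavy chains, which are the motors of the arms, the highest means were those of DNAH11, DNAH2 and DNAH17. DNAH11, an outer arm chain on chromosome 10, stood at 0.546, 0.403 and 0.396 FPKM in normal replicates 1 to 3. It stood at 0.373, 0.347 and 0.266 FPKM in untreated replicates 1 to 3 and at 0.362, 0.547 and 0.690 FPKM in SOT replicates 1 to 3. Every untreated value was below every normal value, by a small margin, and the untreated and SOT values overlapped. DNAH2, an inner arm chain on chromosome 19, ranged from 0.0732 to 0.332 FPKM in normal, from 0.0398 to 0.249 in untreated and from 0.160 to 0.311 in SOT folds, with all 3 groups overlapping. DNAH17, an outer arm chain best known from sperm, ranged from 0.115 to 0.401 FPKM in normal folds, which contained the values of both injured groups.

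DNAH5, the outer arm heavy chain whose loss is a common cause of primary ciliary dyskinesia, is described although its values were seen first. It lies on chromosome 11 and stood at 0.274, 0.0918 and 0.00847 FPKM in normal replicates 1 to 3, from 191, 66 and 7 counts. Its levels were 0.0815, 0.0390 and 0.0243 FPKM in untreated replicates 1 to 3 and 0.149, 0.417 and 0.234 FPKM in SOT replicates 1 to 3. The normal folds thus held both a value above all untreated folds and the lowest value of all 9 libraries. DNAH9, another outer arm chain and likewise chosen after its values were seen, had the same lowest and highest normal library, at 0.0270 FPKM in normal replicate 3 and 0.317 FPKM in normal replicate 1.

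DNAI1 and DNAI2 are the intermediate chains that seat the outer arm. DNAI1, on chromosome 1, stood at 0.690, 0.423 and 0.416 FPKM in normal, 1.53, 0.251 and 0.545 in untreated and 0.360, 1.35 and 0.386 in SOT replicates 1 to 3. A single library was high in each injured group. DNAI2 stood at 0.773, 0.133 and 0.0568 FPKM in normal, 0.208, 0.0779 and 0.0453 in untreated and 0.182, 0.649 and 0.191 in SOT replicates 1 to 3. Normal replicate 1 and SOT replicate 2 stood apart from the other 7 libraries. DNAAF1 and DNAAF2 help to preassemble dynein arms in the cytoplasm. DNAAF2 ranged from 4.01 to 7.15 FPKM over the 9 libraries with all groups overlapping, whereas DNAAF1 reached 0.656 FPKM in normal replicate 1 and 0.843 in SOT replicate 2 and lay between 0.122 and 0.224 FPKM in the other 7.

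The radial spoke genes showed the same division. RSPH3, a spoke stalk protein on chromosome 12, stood at 5.81, 6.80 and 6.34 FPKM in normal, 6.58, 6.73 and 7.11 in untreated and 7.33, 9.67 and 8.27 in SOT replicates 1 to 3. The SOT values were above all others in FPKM. RSPH9, a spoke head protein, ranged from 0.764 to 1.04 FPKM in normal, from 0.561 to 0.662 in untreated and from 0.706 to 0.990 in SOT folds. RSPH10B ranged from 0.382 to 0.864 FPKM in normal folds, which contained the values of both injured groups. RSPH1 and RSPH4A, further spoke head proteins chosen after their values were seen, were highest in normal replicate 1, at 1.86 and 0.450 FPKM, and next highest in SOT replicate 2, at 1.35 and 0.379 FPKM. Among the tektins, TEKT1 was highest in SOT replicate 2, at 0.825 FPKM, and next highest in normal replicate 1, at 0.690 FPKM. TEKT2 ranged from 0.298 to 0.643 FPKM over all 9 libraries. TEKT3 was at 0 in 2 untreated libraries and reached 0.364 FPKM in SOT replicate 3.

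For the genes outside the IFT family, the libraries of a single group stood far apart. Of the 48 tested, 35 (72.9%) were highest in normal replicate 1 among the normal libraries, beside 34.3% of the 3897 tested genes with a mean under 1 FPKM. Normal replicate 3 was lowest for 37 of the 48. SOT replicate 2 was highest of its group for 41 of 48 (85.4%), beside 32.2% of those low genes, and untreated replicate 1 for 30 of 48 (62.5%), beside 46.9%. The median ratio of normal replicate 1 to normal replicate 3 was 3.80 over the 48 genes, 5 of which had no counts in normal replicate 3, and that of SOT replicate 2 to SOT replicate 1 was 2.83. These shares are descriptions of single libraries and carry no test.

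**Figure D2:**
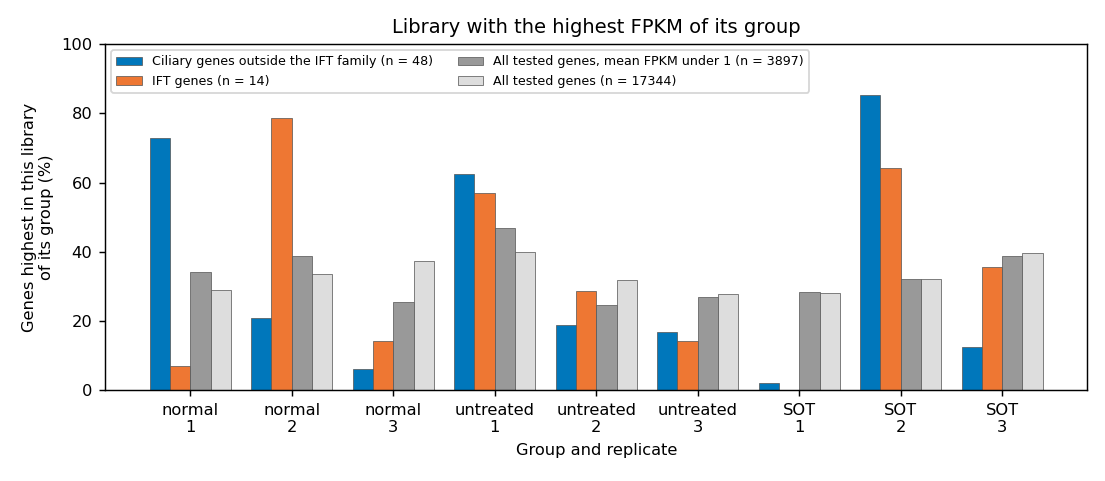
Percentage of genes whose FPKM was highest in a given library of its group, for the 48 tested genes outside the IFT family, the 14 IFT genes, 3897 tested genes with a mean under 1 FPKM and all 17344 tested genes. Genes with tied highest values are not counted, so bars of 1 set add up to 100% or somewhat less within a group. Normal replicate 1 (72.9%) and SOT replicate 2 (85.4%) hold most of the genes outside the IFT family.

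The IFT genes did not follow normal replicate 1: 11 of 14 (78.6%) were highest in normal replicate 2 and 1 of 14 in normal replicate 1. In the SOT group, 9 of 14 were highest in replicate 2. The spread within a group was also smaller. The median SD of log2 CPM (count share after TMM scaling, a normalisation by trimmed means) over the IFT genes was 0.20 in normal, 0.14 in untreated and 0.23 in SOT folds, close to 0.24, 0.17 and 0.31 over all genes tested. Over the 39 tested genes outside the IFT family with a mean under 1 FPKM it was 1.23, 0.59 and 0.92, beside 0.59, 0.55 and 0.70 over all tested genes at that level. The excess over equally low genes was thus found in normal and SOT folds and was small in untreated folds.

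Per library, the mean log2 CPM of the 48 genes, set to 0 at the mean of the normal libraries, was 1.00, -0.03 and -0.97 in normal replicates 1 to 3. It was -0.42, -1.12 and -0.92 in untreated and -0.39, 0.84 and -0.09 in SOT replicates 1 to 3. The normal libraries alone spanned nearly the whole range of the series. The mean over the 14 IFT genes was -0.03, 0.17 and -0.15 in normal, -0.21, -0.37 and -0.32 in untreated and -0.32, -0.15 and -0.16 in SOT replicates 1 to 3. For the IFT genes, every untreated and every SOT library was below every normal library, SOT replicates 2 and 3 by a small margin. On log2(FPKM + 0.1) this order was lost for SOT folds. SOT replicates 2 and 3, at -0.0153 and -0.0126, lay above normal replicates 1 and 3, at -0.0514 and -0.1249.

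**Figure D3:**
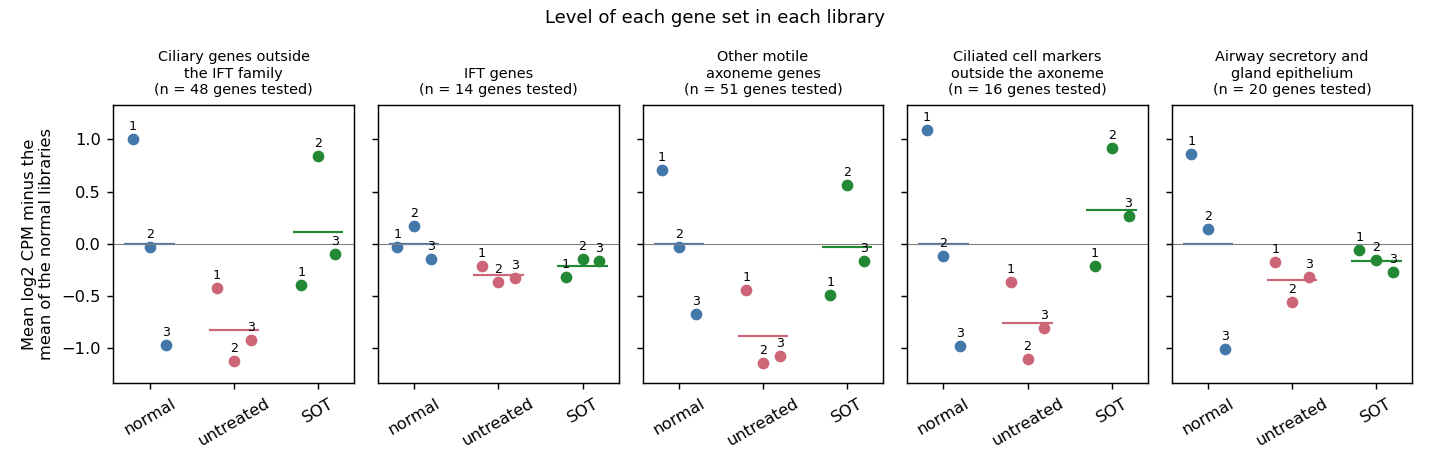
Mean log2 CPM of each gene set in each library minus the mean of the normal libraries; points are libraries with their replicate number and lines are group means. Normal replicate 1 (1.00) and SOT replicate 2 (0.84) are the highest libraries for the 48 genes outside the IFT family, while the IFT genes span -0.37 to 0.17.

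Genes that mark other cells of the airway lining were read in the same libraries. A list of 16 tested ciliated cell markers outside the axoneme gave 1.09, -0.11 and -0.98 in normal, -0.36, -1.10 and -0.81 in untreated and -0.22, 0.91 and 0.26 in SOT replicates 1 to 3, on the same scale. Their summed level was between 120.5 and 162 FPKM in normal, between 92.4 and 106 in untreated and between 109.5 and 171 FPKM in SOT folds. SNTN, a protein of the ciliary tip and a defining marker of these cells, chosen after its values were seen, was at 0 in 6 libraries. The 20 airway secretory and gland genes gave 0.86, 0.14 and -1.003 in normal replicates 1 to 3. They gave -0.17, -0.55 and -0.32 in untreated and -0.05, -0.16 and -0.27 in SOT replicates 1 to 3. Their summed level was 17820 and 19540 FPKM in normal replicates 1 and 2, 2813 FPKM in normal replicate 3, between 3065 and 4089 FPKM in untreated and between 3719 and 5348 FPKM in SOT folds. None of the 20 was at 0 in any library. Normal replicate 3 had the lowest mean of the normal libraries in both lists. Its summed ciliated cell markers, 147.7 FPKM, were above those of normal replicate 2, 120.5 FPKM. Its median marker was lower, however, at 0.182 FPKM beside 0.397 FPKM. Of the 17 markers in the sum, 4 had no counts in normal replicate 3 and 1 in normal replicate 2. Normal replicate 3 was also the normal library with the highest stratified epithelium mean, 0.59, and the highest proliferation mean, 0.67. SOT replicate 2 was not the highest SOT library in the secretory and gland mean, though its sum, 5348 FPKM, was the highest of that group. Its stratified epithelium mean, -1.33, was the lowest of the 9 libraries. The part of airway lining in a library was not tested as a source of these differences.

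The first comparison set the untreated folds against the normal ones and asked which genes differ 1 week after injury. Of the 62 tested genes, 6 fell, 1 rose and 55 did not pass (edgeR quasi-likelihood test, adjusted p under 0.05). Over all genes tested, 32.8% passed, 15.1% lower and 17.7% higher, so the 7 genes called are a smaller share than the background. The genes that fell were IFT88, IFT172, IFT122, CFAP44, CFAP57 and CFAP70, and CFAP69 rose. In bulk tissue, fewer cells of a type and less RNA per cell cannot be told apart.

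IFT88, a core protein of the IFT-B complex needed to build cilia, lies on chromosome 8 at 43903139 to 44031249. Its level was 6.34, 8.21 and 5.95 FPKM in normal, 3.46, 3.16 and 3.30 in untreated and 3.18, 4.51 and 4.94 in SOT replicates 1 to 3. Both injured groups lay below all normal libraries. IFT88 fell from 27.3 ± 4.81 CPM in normal to 13.5 ± 0.553 CPM in untreated folds (SD, n = 3), a log2 fold change of -1.02 (SE 0.18, adjusted p = 0.00439, edgeR). IFT172, the longest IFT-B protein, lies on chromosome 2 at 158605324 to 158648160. It stood at 9.55, 12.5 and 11.2 FPKM in normal, 7.40, 5.79 and 6.36 in untreated and 8.13, 10.2 and 9.28 in SOT replicates 1 to 3. The untreated values were below all others. Its log2 fold change was -0.73 (SE 0.13, adjusted p = 0.0051, edgeR).

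IFT122 belongs to the IFT-A complex, which serves the return transport, and lies on chromosome 9 at 11038134 to 11097192. It stood at 5.29, 5.61 and 4.60 FPKM in normal, 3.87, 3.31 and 3.84 in untreated and 4.49, 5.61 and 5.69 in SOT replicates 1 to 3. The untreated folds were the lowest and the other groups overlapped. Its log2 fold change was -0.46 (SE 0.13, adjusted p = 0.0278, edgeR). The call held in 5 of 9 fits that each left out 1 library, and the adjusted p reached 0.104; it was lost without normal replicate 1 or 2 or untreated replicate 2 or 3. Of the other 11 IFT genes none passed, 8 had a negative and 3 a positive fold change, and the 3 with the highest level, IFT20, IFT52 and IFT57, had log2 fold changes of 0.16, -0.12 and 0.41.

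CFAP44 is part of the tether that holds the inner dynein motors and lies on chromosome 14 at 105793293 to 105924590. It stood at 0.222, 0.186 and 0.144 FPKM in normal, 0.0680, 0.0632 and 0.0732 in untreated and 0.124, 0.178 and 0.167 in SOT replicates 1 to 3, from 108, 93, 72, 37, 34, 39, 65, 95 and 90 counts. The untreated values were tightly grouped and below all others. CFAP44 fell by 1.40 on the log2 scale (SE 0.30, adjusted p = 0.00909, edgeR). IFT88, IFT172 and CFAP44 passed in all 9 fits that each left out 1 library. With limma on log2(FPKM + 1) the adjusted p of CFAP44 was 0.0521.

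CFAP57, an inner arm regulator on chromosome 13 at 123401946 to 123485604, stood at 0.439, 0.662 and 0.319 FPKM in normal, 0.223, 0.160 and 0.128 in untreated and 0.138, 0.357 and 0.308 in SOT replicates 1 to 3. CFAP70, an outer arm protein on chromosome 18 at 14063406 to 14154512, stood at 0.642, 0.701 and 0.412 FPKM in normal, 0.206, 0.210 and 0.184 in untreated and 0.228, 0.961 and 0.468 in SOT replicates 1 to 3. Both were lower in every untreated than in every normal library. Their log2 fold changes were -1.44 (SE 0.45, adjusted p = 0.0397) and -1.50 (SE 0.48, adjusted p = 0.044, edgeR). The call of CFAP57 held in 3 of 9 and that of CFAP70 in 2 of 9 fits with 1 library left out, with an adjusted p of up to 0.135 and 0.133. Both calls were lost without normal replicate 1 or 2, any untreated library or SOT replicate 3, and that of CFAP70 also without normal replicate 3. CFAP70 had an adjusted p of 0.0557 and 0.0845 with limma on log2(FPKM + 0.1) and log2(FPKM + 1).

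CFAP69, a protein of the sperm flagellum and of olfactory cilia, went the other way. It lies on chromosome 10 at 38317200 to 38379234 and stood at 1.29, 1.11 and 0.743 FPKM in normal, 2.25, 3.13 and 2.40 in untreated and 2.07, 2.46 and 1.27 in SOT replicates 1 to 3. Every untreated library was above every normal one. CFAP69 rose by 1.34 on the log2 scale (SE 0.31, adjusted p = 0.0132, edgeR). Without untreated replicate 2 the adjusted p was 0.0505, and it passed in the other 8 fits with 1 library left out.

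**Figure D4:**
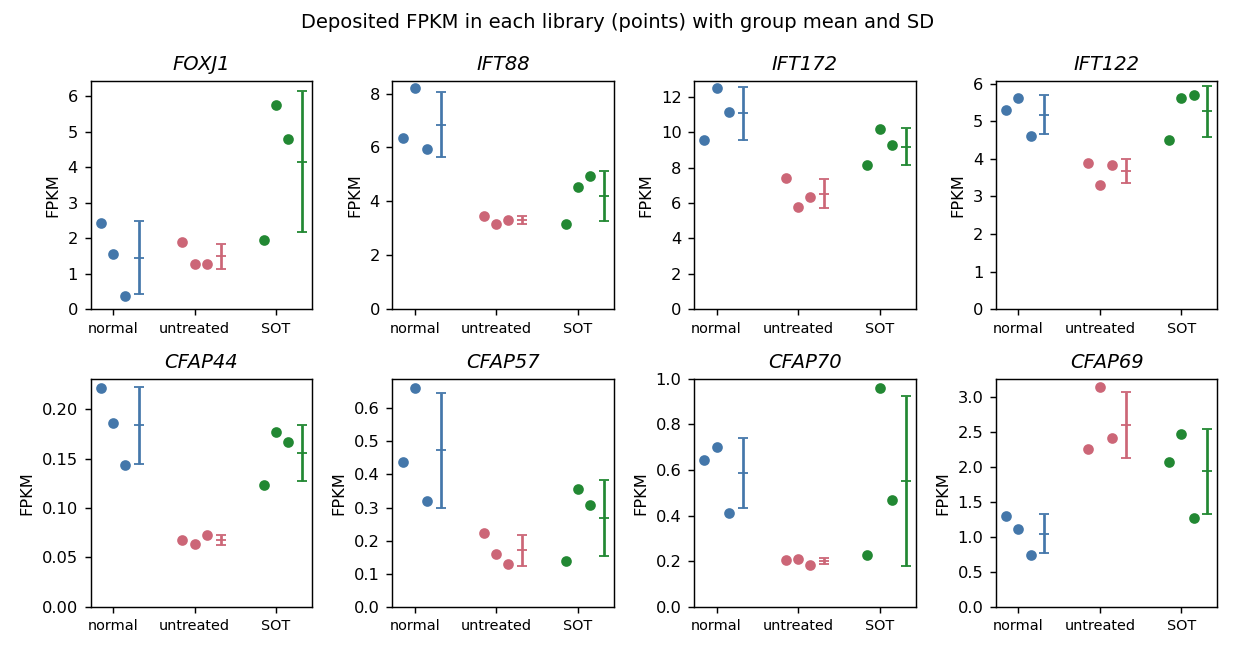
Deposited FPKM of FOXJ1 and of the 7 genes that passed in untreated against normal folds; points are libraries in replicate order, and the bar beside each group is its mean with SD (n = 3). IFT88, IFT172, IFT122, CFAP44, CFAP57 and CFAP70 are lower in every untreated than in every normal library, and CFAP69 is higher.

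The direction of the genes that did not pass can be described by counts alone. Outside the IFT family, 39 of 48 fold changes were negative with a median of -1.32 on the log2 scale, beside 51.7% negative and a median of -0.02 over all genes tested. All 11 tested dynein heavy chains were negative, from -2.90 to -0.25, as were 5 of 6 radial spoke genes and 20 of 24 CFAP genes. Of the 14 IFT genes, 11 were negative, with a median of -0.22. Normal replicate 1, the library high in these genes, took a large part of the size: without it, 32 of the 48 were negative and the median was -0.35. With limma the median was -0.43 on log2(FPKM + 0.1) and -0.13 on log2(FPKM + 1), scales that shrink the changes of low genes, with 38 and 39 of 48 negative. In FPKM, 17 of 62 genes (27.4%) lay lower in every untreated than in every normal library, beside 28.8% of all genes tested, and 1 lay higher, beside 26.2%. The pooled share on the lower side was near the background, but it joined 2 unlike shares. These were 7 of 14 IFT genes (50%) and 10 of the 48 others (20.8%).

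**Figure D5:**
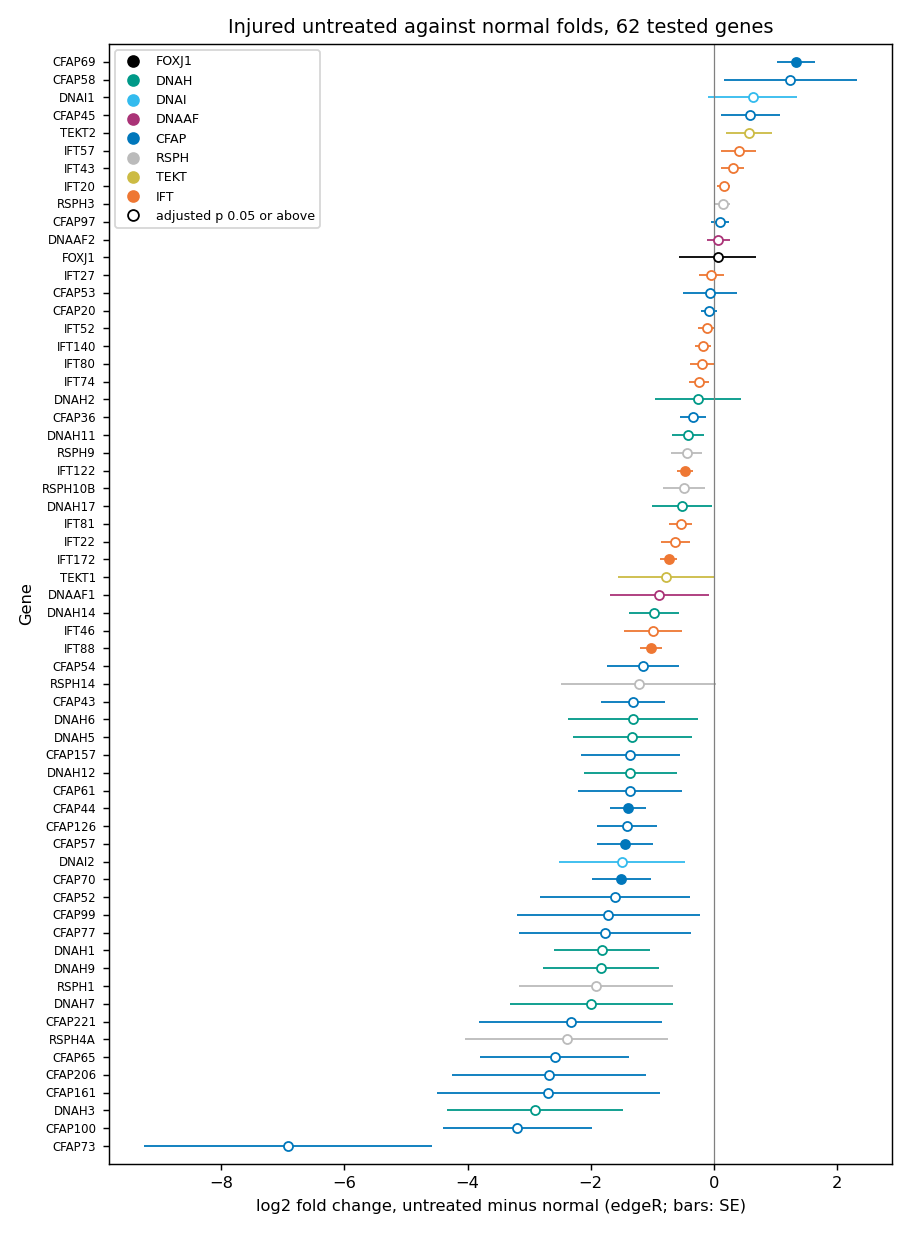
Log2 fold change of untreated against normal folds for the 62 tested genes with SE bars (edgeR, 3 libraries a group); filled points passed an adjusted p of 0.05, and colours give the family. Of the 62, 50 lie left of 0, most with wide bars; the fitted value of CFAP73 has no counts in the untreated group and is no measure of size.

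CFAP73, which with CFAP100 belongs to a complex that controls the inner arms, had 28, 13 and 0 counts in normal, none in untreated and 5, 37 and 8 counts in SOT replicates 1 to 3. Against a floor of 3 counts per library, its mean CPM was at least 4.92-fold higher in normal and at least 4.98-fold higher in SOT than in untreated folds. Neither difference passed (adjusted p = 0.0648 and 0.313, edgeR), and normal replicate 3 was also at 0. Over the 65 genes, the number with no counts was 2, 2 and 6 in normal, 6, 9 and 9 in untreated and 4, 2 and 1 in SOT replicates 1 to 3.

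SOT folds were compared with untreated folds to ask which genes differ when the injured fold received the hydrogel. None of the 62 genes passed in either direction (edgeR), and 0.0115% of all genes did, 2 genes in all, both lower. At an unadjusted p under 0.05 there were 8 of the 62, all higher in SOT folds, beside 12.6% of all genes. Their share was thus near the background. The 8 were CFAP44, IFT122, CFAP73, CFAP70, IFT172, DNAH12, CFAP99 and DNAH5. DESeq2 called 1 of the 62, CFAP44 (adjusted p = 0.0222), and limma on log2(FPKM + 0.1) called none. In the edgeR fit CFAP44 had a log2 fold change of 1.04 (SE 0.29, adjusted p = 0.23) and IFT122 one of 0.38 (SE 0.13, adjusted p = 0.299). The 3 genes with the smallest p on the lower side were CFAP69, IFT20 and IFT57, at -0.56, -0.12 and -0.30.

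Fold changes of SOT against untreated folds were positive for 41 of 48 genes outside the IFT family, with a median of 1.10 on the log2 scale beside 0.01 over all genes tested. They were positive for 9 of 11 dynein heavy chains, 6 of 6 radial spoke genes, 21 of 24 CFAP genes and 9 of 14 IFT genes. Without SOT replicate 2, the SOT library high in these genes, 40 of 49 tested were positive and the median was 0.55. With limma the median of the 48 was 0.53 on log2(FPKM + 0.1), beside 0.13 over all genes, and 0.18 on log2(FPKM + 1), beside 0.09, with 43 of 48 positive on both. On both scales 13 of 14 IFT genes were positive, with medians of 0.29 and 0.26 against 0.16 in the edgeR fit. DNAH5 had a log2 fold change of 2.28 (SE 0.98, adjusted p = 0.389, edgeR), with SOT values all above the untreated values. In FPKM, 19 of 62 genes lay higher in every SOT than in every untreated library (30.6%, beside 16.4% of all genes tested) and none lower (beside 6.82%). In CPM these were 13 of 62 (21.0%, beside 7.40%) higher and 1 lower (beside 12.4%). Both scales shared the 13.

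SOT folds were also compared with normal folds, which share their normal libraries with the first comparison. IFT88 fell and the other 61 genes did not pass (edgeR), while 16.7% of all genes did, 9.01% higher and 7.67% lower. IFT88 had 15.5 ± 2.86 CPM in SOT folds (SD, n = 3) and a log2 fold change of -0.81 (SE 0.18, adjusted p = 0.0199, edgeR). Without normal replicate 1 or 2 its adjusted p was 0.0534 or 0.0613, and 0.0591 when the untreated libraries were left out. Between SOT and untreated folds IFT88 differed by 0.20 on the log2 scale (SE 0.18, adjusted p = 0.668, edgeR). The 3 genes with the smallest p on the higher side were RSPH3 (0.31, adjusted p = 0.114), CFAP69 (0.78, adjusted p = 0.118) and IFT43, an IFT-A protein (0.45, adjusted p = 0.134, edgeR). Without SOT replicate 3, CFAP69 passed at 1.05 (adjusted p = 0.0371, edgeR). Outside the IFT family 25 fold changes were negative and 23 positive, with a median of -0.03. Without normal replicate 1, 36 of 48 were positive, and without SOT replicate 2, 33 of 49 were negative. With limma on log2(FPKM + 0.1), 28 of 48 were positive. Groups did not overlap in FPKM for 4 genes on the higher side (beside 23.6% of all genes) and 2 on the lower side (beside 14.8%), IFT22 and IFT88.

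FOXJ1, on an unplaced scaffold, stood at 2.42, 1.56 and 0.365 FPKM in normal replicates 1 to 3, from 302, 201 and 47 counts. It stood at 1.904, 1.28 and 1.28 FPKM in untreated and at 1.94, 5.75 and 4.79 FPKM in SOT replicates 1 to 3. SOT replicates 2 and 3 were the highest of the series and SOT replicate 1 was level with untreated replicate 1. The log2 fold change was 0.06 for untreated against normal (SE 0.62, adjusted p = 0.95), 1.33 for SOT against untreated (SE 0.63, adjusted p = 0.428) and 1.39 for SOT against normal folds (SE 0.63, adjusted p = 0.16, edgeR). FOXJ1 is 1 of the 48 tested genes outside the IFT family. The libraries were ordered alike in part for FOXJ1 and for the mean over those 48. SOT replicate 2 and normal replicate 1 were high for both, and untreated replicates 2 and 3 and normal replicate 3 were lowest for both. SOT replicate 3 had the second highest FOXJ1 level, while its mean over the 48 genes was -0.09.

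Other regulators of multiciliated cells came from a list of 16 genes in the table, 14 of them tested. In untreated against normal folds, 3 rose (21.4%, beside 17.7% of all genes tested) and 1 fell (7.14%, beside 15.1%), and the share that rose was near the background. PLK4, STIL and SASS6, which act in centriole duplication in every dividing cell, rose by 1.21, 1.37 and 1.05 on the log2 scale (adjusted p = 0.0083, 0.00225 and 0.00555, edgeR). In the same comparison 17 of 20 proliferation genes rose (85%, beside 17.7% of all genes tested). The part of proliferating cells was not tested. RFX2, a transcription factor that works with FOXJ1, fell by 0.82 on the log2 scale (adjusted p = 0.0308, edgeR). None of the 14 passed in SOT against untreated folds, and 2 had an unadjusted p under 0.05, beside 12.6% of all genes tested (edgeR). In SOT against normal folds 3 of the 14 rose (21.4%, beside 9.01% of all genes tested, edgeR), and PLK4, STIL and SASS6 were again higher. The 3 with the highest level were TFDP1, E2F4 and RFX2. CCNO and CDC20B, which serve the mass production of centrioles before cilia form, were chosen after their values were seen. CCNO stood at 1.896, 1.02 and 0.768 FPKM in normal, 0.558, 0.418 and 0.369 in untreated and 0.808, 4.34 and 4.37 in SOT replicates 1 to 3. Its SOT values were all above the untreated values, with a log2 fold change of 2.63 (SE 0.63, adjusted p = 0.183, edgeR). CDC20B reached 7.96 FPKM in SOT replicate 2 and lay between 0 and 1.57 FPKM in the other 8 libraries.

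A list of other motile axoneme genes held 55 genes in the table, 51 of them tested. In untreated against normal folds 9 fell (17.6%, beside 15.1% of all genes tested) and none rose (beside 17.7%, edgeR), with a median of -1.08 and 46 of 51 negative. The share that fell was thus near the background. The 9 were SPATA18, ZMYND10, CCDC103, DRC1, DNAL1, ENKUR, EFHC2, STK33 and LRRIQ1. CCDC103 and ZMYND10 assist dynein arm assembly and fell by 2.83 and 1.26, and DRC1, of the nexin link between doublets, fell by 1.94 on the log2 scale (adjusted p = 0.0102, 0.0139 and 0.0122, edgeR). The 3 with the highest level, TTC12, STK36 and SPEF1, had log2 fold changes of 0.12, -0.17 and -0.26 that did not pass. None of the 51 passed in SOT against untreated folds, where 49 were positive with a median of 0.70. There, 7 had an unadjusted p under 0.05, beside 12.6% of all genes tested (edgeR). None passed in SOT against normal folds, where 4 had an unadjusted p under 0.05, beside 33.7% of all genes tested (edgeR).

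Of the 16 tested ciliated cell markers, 3 fell (18.8%, beside 15.1% of all genes tested) and 1 rose (6.25%, beside 17.7%) in untreated against normal folds, so the share that fell was near the background. TPPP3, a tubulin-binding protein, stood at 28.3, 20.8 and 33.2 FPKM in normal and 11.8, 12.7 and 11.6 FPKM in untreated replicates 1 to 3 and fell by 1.16 on the log2 scale (adjusted p = 0.00358, edgeR). CETN2, a centrin of centrioles, fell by 0.62 and CAPSL by 2.54, and ERICH3 rose by 1.40. The marker with the highest level, EPCAM, is found in many epithelia and had a log2 fold change of -0.16 (adjusted p = 0.621, edgeR). None of the 16 passed in SOT against untreated folds, where 15 were positive. There, 4 had an unadjusted p under 0.05, beside 12.6% of all genes tested (edgeR). CETN2 and TPPP3 fell in SOT against normal folds (2 of 16, 12.5%, beside 7.67% of all genes tested, edgeR).

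A list of 36 further ciliary transport genes covered dynein-2, kinesin-2, the BBSome and related proteins, all tested. In untreated against normal folds 4 fell (11.1%, beside 15.1% of all genes tested) and 2 rose (5.56%, beside 17.7%, edgeR), both shares below the background. KIF3A, a motor subunit that pulls IFT trains towards the tip, stood at 9.69, 9.32 and 9.39 FPKM in normal and 5.32, 4.03 and 4.56 FPKM in untreated replicates 1 to 3 and fell by 1.00 on the log2 scale (adjusted p = 0.00317, edgeR). DYNC2LI1, of the returning motor, fell by 0.85, ARL6 by 0.93 and MKKS by 0.75, while TULP3 and BBS5 rose by 1.07 and 0.57. The 3 with the highest level, DYNLRB1, RABL2B and BBIP1, did not pass. None of the 36 passed in SOT against untreated folds, with 2 at an unadjusted p under 0.05, beside 12.6% of all genes tested (edgeR). MKKS and ARL6 fell in SOT against normal folds (2 of 36, 5.56%, beside 7.67% of all genes tested, edgeR).

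Markers of other tissues were read in the same comparison of untreated against normal folds. Over all genes tested, 15.1% fell and 17.7% rose. Of 13 macrophage markers 10 (76.9%) rose. Their summed level was between 152 and 222 FPKM in normal, between 958 and 1101 in untreated and between 441 and 675 FPKM in SOT folds. Of 13 cartilage markers 11 (84.6%) fell, of 17 skeletal muscle markers 9 (52.9%) fell, and of 12 nerve and Schwann cell markers 7 (58.3%) fell. Of 20 stratified epithelium markers 3 (15%) rose and 2 (10%) fell. Of 20 airway secretory and gland genes 4 (20%) fell and 2 (10%) rose. The shares of both epithelial lists were thus near the background. The summed level of cartilage markers was between 594 and 1234 FPKM in normal and between 47.7 and 69.4 FPKM in untreated folds, and that of muscle markers between 419 and 4056 FPKM in untreated folds. The part of these changes in the fall of the 3 IFT and 3 CFAP genes that passed as lower was not tested.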

How the data were processed

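The deposited table held a read count and an FPKM value for 20525 genes in each of 9 libraries, per the file headers. Cutadapt 1.9, HISAT2 2.0.4, StringTie 1.3.4d and edgeR with the build OryCun2.0 were named, per the submitters' processing notes. The sources used here give neither strandedness nor the handling of reads with several matches. Deposited counts of 2 (101 to 115 genes per library) and of 4 (350 to 419) were more frequent than counts of 1 (53 to 79), so they may not be plain read counts. Near-identical family members may share reads.

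Counts were tested in R 4.3.3 with edgeR 4.0.16: filterByExpr kept 17344 genes, scaling was by TMM, and the quasi-likelihood fit over all 9 libraries had a coefficient for each group. A gene rose or fell where the Benjamini-Hochberg adjusted p over all genes tested was under 0.05. The quasi-likelihood test gives no SE. The SE printed with its fold changes is the absolute log2 fold change divided by the square root of the F statistic. Log2 CPM used a prior count of 2. Alternatives were DESeq2 1.42.0, limma 3.58.1 on log2(FPKM + 0.1) and log2(FPKM + 1), upper-quartile scaling, no filter, a replicate block, only the groups compared, and each library left out. The fitting steps were tested on simulated data. A floor of 3 counts corresponded to between 0.0558 and 0.0692 CPM and, like all counts without molecular identifiers, covers counting error only. No pair of replicates agreed within sampling noise.

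Symbols for locus-number genes came from a RefSeq table of the assembly mOryCun1.1, used for names alone, and 588 of 5734 such genes were given one. The genes and the 11 lists outside them were chosen with earlier results of these data known. Named genes were FOXJ1, the 3 of each family with the highest mean FPKM, per comparison and direction up to 6 that passed or else the 3 with the smallest p, and the 3 highest of each list; others are said to be chosen after their values were seen. Genes of the lists that passed are named as well. Promoters and proteins were not analysed here.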

Additional observations from a re-analysis of the deposited data

How the results depend on the processing

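The number of libraries, 3 a group, and the low level of most genes outside the IFT family limit the precision. For untreated against normal folds, the number of the 65 genes that fell was 6, became 13 with DESeq2 and ran from 3 to 8 when 1 library was left out. Of the 17344 genes tested, 2618 fell in the main fit and 3626 with DESeq2, so the 13 were near the background share. The number of the 65 that fell was 3 without normal replicate 1 or 2 or untreated replicate 2 or 3. It was also 3 without both normal replicate 1 and SOT replicate 2, a choice made after seeing the data. The number that rose ran from 0 (without untreated replicate 2) to 1. All genes called were 7181 with DESeq2 and ran from 3145 (without untreated replicate 3) to 6026 when 1 library was left out. The median log2 fold change of the genes, -0.93, was -0.42 with limma on log2(FPKM + 0.1) and -0.15 on log2(FPKM + 1), whose pseudocounts shrink the changes of low genes, and ran from -1.19 to -0.33 when 1 library was left out, the last without normal replicate 1. FOXJ1 turned to -0.034 under upper-quartile scaling and ran from -0.40 to 0.66 when 1 library was left out.

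For SOT against untreated folds, DESeq2 called 1 of the genes as higher. All genes called, 2 in the main analysis, were 682 with DESeq2, 1 with upper-quartile scaling, 0 and 27 with limma at the small and the large pseudocount, 0 with only these groups fitted, and from 0 to 397 with 1 library left out, the last without SOT replicate 1. IFT20 turned to 0.0178 and 0.0172 with limma at the small and the large pseudocount. For SOT against normal folds, limma at either pseudocount called 2 genes as higher, CFAP99 and IFT43, and the number ran from 0 to 1 with 1 library left out, the last being CFAP69 without SOT replicate 3. The number lower, 1, was 3 with DESeq2, 0 with only these groups fitted, 0 without both normal replicate 1 and SOT replicate 2, and ran from 0 to 2 with 1 library left out. All genes called were 4809 with DESeq2, 1578 with only these groups fitted and from 1135 to 3222 with 1 library left out. On the log2(FPKM + 0.1) scale, the IFT means of SOT replicates 2 and 3, -0.0153 and -0.0126, lay above normal replicates 1 and 3. That scale put the median of all genes at 0.13 for SOT against untreated and at 0.12 for SOT against normal folds, and upper-quartile scaling put it at -0.11 for untreated against normal folds. The FPKM values had no TMM step. The TMM factors were between 0.947 and 0.952 in untreated and between 1.01 and 1.09 in SOT libraries. The cause of these shifts was not tested. The other 189 values for counts and levels stayed within 1.5 times or within the spread.

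Replicate numbers are shared between groups, and the labels do not say that they pair samples. The correlation of same-numbered deviations was between -0.048 and 0.267, beside -0.276 to 0.174 for libraries of different groups and numbers. Deviations from means of 3 libraries cannot decide whether the libraries are paired. With a replicate block, 5 genes fell and 1 rose in untreated against normal folds (5526 of all genes), 0 of all genes passed in SOT against untreated folds, and 2 genes fell in SOT against normal folds (2625 of all genes). IFT122 and CFAP57 no longer passed under the block (adjusted p = 0.0556 and 0.0658, edgeR), and IFT22 did. The comparison of groups in CPM beside FPKM was also added after seeing the data. Not every library correlated best with the library of its own number.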

Other observations

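Of the 5 genes listed under a locus number with a RefSeq symbol of these families, 4 were tested. DNAH10, an inner arm heavy chain, stood at 0.660, 0.450 and 0.315 FPKM in normal, 0.190, 0.271 and 0.250 in untreated and 0.253, 0.862 and 0.635 in SOT replicates 1 to 3. CFAP90 stood at 0.877 FPKM in normal replicate 1 and 1.21 FPKM in SOT replicate 2, and at no more than 0.343 FPKM in the other 7 libraries. IFT70A ranged from 0.969 to 1.46 FPKM in normal and from 0.591 to 0.805 FPKM in untreated folds, which did not overlap. CFAP97D2 lay between 0.800 and 2.29 FPKM. CFAP46 was listed at 0 in 8 of 9 libraries.

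SCGB1A1, the secretory protein of club cells, was chosen after its values were seen. It stood at 125, 13.0 and 16.9 FPKM in normal, 14.9, 7.67 and 4.60 in untreated and 132, 361 and 58.1 in SOT replicates 1 to 3. Like CCNO, it was higher in every SOT than in every untreated library, and its log2 fold change of 4.19 did not pass (SE 1.10, adjusted p = 0.211, edgeR). BPIFA1, BPIFB1 and DMBT1, the airway secretory genes with the highest level, had another order: BPIFB1 stood at 5997, 7782 and 507 FPKM in normal replicates 1 to 3 and between 78.8 and 506 FPKM in SOT folds.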
